A study of Mus musculus with 8 samples.

Results

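The 37 genes of the mouse mitochondrial genome were taken by their symbols, which start with mt-, and are 13 mRNA genes, 2 rRNA genes and 22 tRNA genes. They were matched by Ensembl identifier among the 56953 genes of a raw count table. The samples are CT26, a cell line of mouse colorectal carcinoma, grown as transplanted tumours treated with mLJZD, a drug whose abbreviation the labels leave unexpanded, or with normal saline, and as cell cultures kept for 48 hours with 10% serum containing mLJZD or with 10% control serum. All 4 groups are the same line with no stated genetic change, and each has 2 libraries, 8 in all. Whether a group's 2 libraries came from different animals or dishes is not stated, so the p-values reflect a spread that may be purely technical. Age and strain of the host animals, the cells a tumour sample holds and any selection of RNA before library preparation were left unstated in the labels.

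Mitochondrial DNA is a small circle that is transcribed from both strands as long RNAs, which are cut into mRNAs, rRNAs and tRNAs, mostly at the tRNAs that lie between the other genes. The mRNAs encode membrane subunits of the respiratory chain and the ATP synthase: mt-Nd genes those of complex I (NADH dehydrogenase), mt-Cytb that of complex III, mt-Co genes those of complex IV (cytochrome c oxidase), and mt-Atp6 and mt-Atp8 those of the ATP synthase. All other subunits, and the proteins that transcribe, process and translate these RNAs, come from nuclear genes. Pieces of mitochondrial DNA also lie in the nuclear genome as pseudogenes, and a read that fits both places equally well has no unique home.

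Library totals ran from 16594912 to 29363861 counts. The labelled cells were checked against 10 epithelial and colon markers. Krt20 was between 141 and 276 CPM (counts per 1000000 counts of the library) in every library and Krt18 between 1.86 and 39.0 CPM, while Epcam was at 0 in all 4 cultures and Cdx2 at 0 in all 4 tumours. Summed markers of macrophages were at 1280 to 1518 CPM in tumours against 8.71 to 11.2 CPM in cultures. In such bulk samples fewer cells of a type and less RNA per cell cannot be told apart.

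Several of the 37 genes have near-identical copies in the nuclear genome. GENCODE M21 transcripts of the members were compared with those of nuclear genes. Stretches of 100 bases that occur letter for letter in a nuclear transcript made up 99.5% of all such stretches in mt-Co2, 99.5% in mt-Atp6, 99.9% in mt-Co3, 97.6% in mt-Nd3, 98.5% in mt-Nd4l, 60.8% in mt-Nd4 and 30.8% in mt-Co1. The share was 3.2% in mt-Nd2 and 0 in mt-Nd1, mt-Nd5, mt-Nd6, mt-Cytb, mt-Atp8 and both rRNA genes. The near-complete copies, unprocessed pseudogenes on chromosome 1, were Gm28661 for mt-Co2, Gm10925 for mt-Atp6, Gm28437 for mt-Co3, Gm28438 for mt-Nd3, Gm10222 for mt-Nd4l and, over 63.6% of its length, Gm28439 for mt-Nd4. A close and a more distant pair are shown as examples. The start of mt-Nd3 differs from its chromosome 1 copy by T3C (mitochondrial base, position from the first base of the transcript, nuclear base). The start of mt-Cytb is set beside its nearest relative, Gm11410 on chromosome 4. Capitals mark the bases that differ, 1 in the first pair and 7 in the second pair, each over 120 bases from the GENCODE M21 transcripts.
mt-Nd3: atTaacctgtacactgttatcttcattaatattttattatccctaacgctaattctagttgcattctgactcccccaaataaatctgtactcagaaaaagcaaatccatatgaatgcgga
Gm28438: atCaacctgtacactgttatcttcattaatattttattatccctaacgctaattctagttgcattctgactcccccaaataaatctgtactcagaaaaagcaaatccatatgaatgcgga
mt-Cytb: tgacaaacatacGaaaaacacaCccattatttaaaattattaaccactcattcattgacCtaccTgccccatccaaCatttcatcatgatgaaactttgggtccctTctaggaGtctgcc
Gm11410: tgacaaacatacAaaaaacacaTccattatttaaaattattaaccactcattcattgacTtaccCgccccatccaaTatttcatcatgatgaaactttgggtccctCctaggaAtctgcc

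Levels per kilobase fell into 2 ranges that follow the position on the circle. The 6 genes that lie between mt-Co1 and mt-Nd4 (mt-Co2, mt-Atp8, mt-Atp6, mt-Co3, mt-Nd3 and mt-Nd4l) had between 0.575 and 74.9 CPM per kb over the 8 libraries. The other 7 mRNA genes had between 165 and 5227 CPM per kb, with no overlap. The 6 genes make up 26.3% of the summed mRNA gene length and held 0.492% of the mRNA counts. Of these 6, mt-Atp8 has no letter-for-letter stretch in a listed nuclear transcript, and it lies between genes that do. Nuclear DNA outside annotated transcripts was not searched, so a copy of mt-Atp8 there would have been missed. The copies, counted as genes of their own, were also low. Over the 8 libraries Gm28661 had 173 to 1303 counts, beside 267 to 515 for mt-Co2, and Gm28438 had 33 to 504 counts, beside 11 to 47 for mt-Nd3. How the authors' counting treated reads that map to several places is not given in the sources used here. The values of these 6 genes are therefore uncertain in every comparison, and those of mt-Nd4 and mt-Co1 in part.

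**Figure D1:**
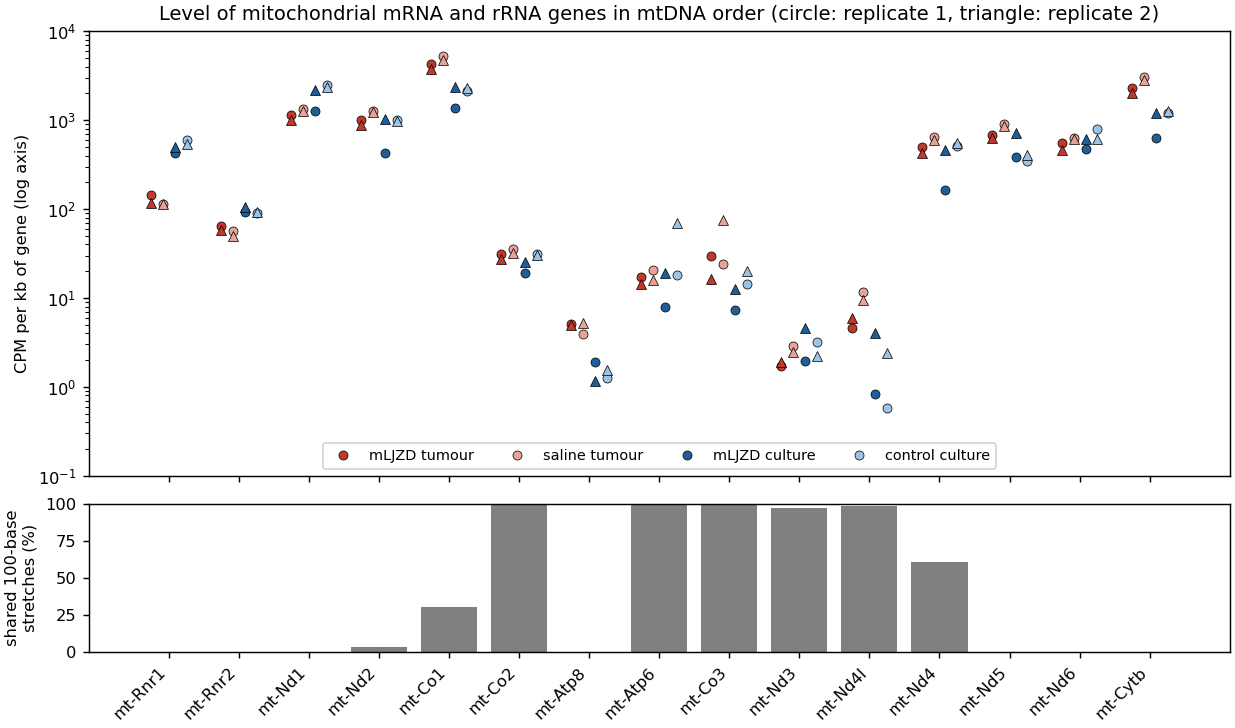
Upper panel: CPM per kilobase of gene length (log axis) of the 2 rRNA and 13 mRNA genes in their order on mitochondrial DNA, 1 point per library, coloured by group. Lower panel: percent of a gene's 100-base stretches that occur letter for letter in a nuclear transcript of GENCODE M21. The 6 genes from mt-Co2 to mt-Nd4l sit at or under 74.9 CPM per kb in all 8 libraries, and the other mRNA genes at or above 165 CPM per kb.

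The classes differed widely in how much of them was counted. All 13 mRNA genes and both rRNA genes had counts in every library, 1982813 and 76868 in all. Of the 22 tRNA genes 17 had a count, 10 had at least 10 counts over the 8 libraries, 6 had a count in every library and 5 had none (mt-Ta, mt-Tf, mt-Tg, mt-Tk and mt-Tt). The tRNA genes held 3738 counts in all.

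The mRNA genes held 1.36% and 1.199% of the counts in mLJZD tumours, against 1.71% and 1.60% in saline tumours. Both mLJZD tumours were below both saline tumours. Counting error is small at this depth: the Wilson 95% interval of the first mLJZD tumour was 1.36% to 1.37%, which covers counting error only. In cultures the share was 0.567% and 1.05% with mLJZD serum, against 0.986% and 1.02% with control serum. There the mLJZD libraries lay on either side of the controls. An exact permutation test of 2 libraries against 2 cannot give a two-sided p under 0.333, so class shares are given without a test.

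The rRNA genes held 0.0242% and 0.0205% of the counts in mLJZD tumours, against 0.0197% and 0.0186% in saline tumours. In cultures they held 0.0549% and 0.0648% with mLJZD serum, against 0.0712% and 0.0654% with control serum. The rRNA share was thus higher in both mLJZD tumours than in both saline tumours, and lower in both mLJZD cultures than in both controls. In each case the closest libraries had overlapping Wilson intervals. These were 0.0639% to 0.0657% for the second mLJZD culture and 0.0644% to 0.0665% for the second control. For the second mLJZD tumour and the first saline tumour they were 0.0198% to 0.0212% and 0.0191% to 0.0203%. In cultures the rRNA genes went opposite ways on CPM, with mt-Rnr1 lower and mt-Rnr2 higher in both mLJZD libraries than in both controls. Per 100 mRNA counts there were 1.78 and 1.71 rRNA counts in mLJZD tumours, against 1.16 and 1.17 in saline tumours, with no overlap. The same ratio was 9.69 and 6.17 in mLJZD cultures, against 7.22 and 6.41 in control cultures, where the groups overlapped.

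**Figure D2:**
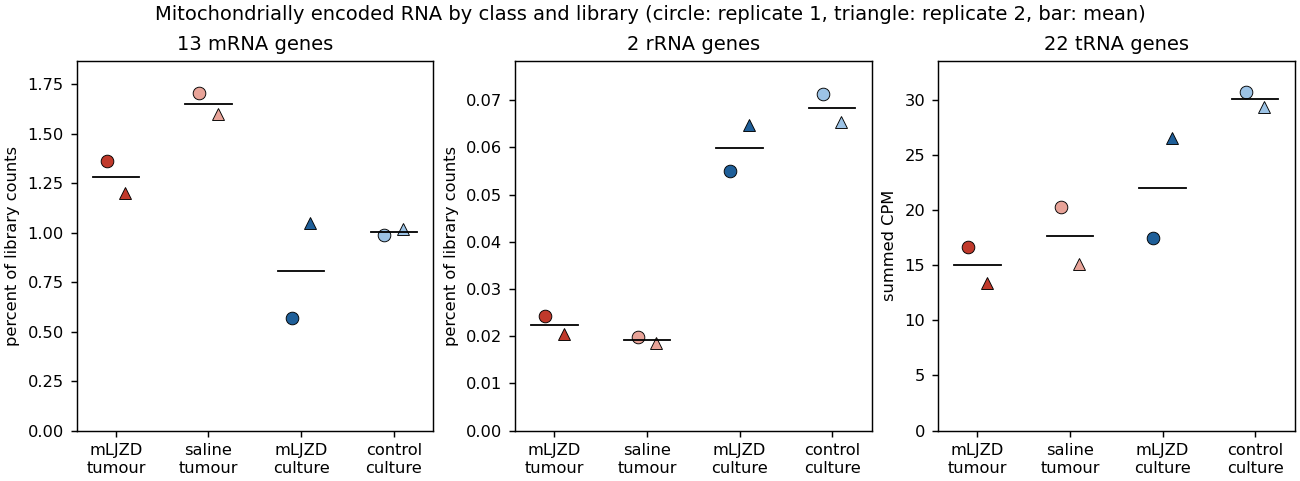
Share of all counts of a library in the 13 mRNA genes (left, percent), in the 2 rRNA genes (middle, percent) and summed CPM of the 22 tRNA genes (right), for each of the 8 libraries, with bars at the group means. The mRNA share is lower in both mLJZD tumours (1.36% and 1.199%) than in both saline tumours (1.71% and 1.60%), while the 2 mLJZD cultures are far apart (0.567% and 1.05%).

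The first comparison asks how mLJZD tumours differed from saline tumours. In mLJZD tumours 9 of 13 mRNA genes fell and both rRNA genes rose, by edgeR's quasi-likelihood test with Benjamini-Hochberg adjustment over the 15417 genes tested. Of all genes tested, 16.0% were lower and 15.4% higher in the mLJZD tumours, 31.4% in all. The median log2 fold change was -0.38 for the mRNA genes and 0.00095 for all genes tested. On CPM, 10 of 13 mRNA genes were lower in both mLJZD tumours than in both saline tumours and none higher, beside 36.6% of all genes tested lower and 27.9% higher in this way, 64.5% in all. With a trend in transcript length and GC content, fitted on nuclear genes, taken out, 11 of the 37 genes were lower and 1 higher, beside 16.6% of all genes lower and 16.7% higher, 33.3% in all.

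Among complex I subunits, mt-Nd5, a proton-pumping subunit, had 1230 and 1160 CPM in mLJZD tumours, against 1658 and 1567 CPM in saline tumours. Its log2 fold change was -0.40 (SE 0.04, adjusted p = 2.3e-07 by edgeR). Both mLJZD tumours were below both saline tumours. In mt-Nd2, another proton-pumping subunit, the mLJZD tumours had 1041 and 905 CPM, against 1306 and 1277 CPM in saline tumours. The groups did not overlap, and the log2 fold change was -0.38 (SE 0.05, adjusted p = 1.6e-05 by edgeR). The other complex I genes that fell in mLJZD tumours were mt-Nd4 (-0.40), mt-Nd1 (-0.23), the light-strand gene mt-Nd6 (-0.26) and mt-Nd4l (-1.0, on 4 to 69 counts a library over the series, and not called without either mLJZD tumour, without the first saline tumour or by DESeq2). For mt-Nd3 the log2 fold change was -0.53 with an edgeR adjusted p of 0.41.

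The gene for cytochrome b, mt-Cytb, had 2636 and 2340 CPM in mLJZD tumours, against 3457 and 3279 CPM in saline tumours. The groups did not overlap, and its log2 fold change was -0.40 (SE 0.04, adjusted p = 9.2e-07 by edgeR). For mt-Co1, the catalytic subunit of complex IV and the gene with the most counts of the 37 in every library, the mLJZD tumours had 6591 and 5759 CPM and the saline tumours 8075 and 7413 CPM. That is a log2 fold change of -0.29 (SE 0.04, adjusted p = 7.1e-05 by edgeR), again with no overlap. Without the second mLJZD tumour mt-Co1 was at -0.18, and it was not called without either mLJZD tumour or by DESeq2. With that second tumour left out, mt-Nd1 was at -0.11, mt-Nd6 at -0.12 and mt-Nd4 at -0.27, none of them called. The calls of mt-Nd2, mt-Nd5 and mt-Cytb held in each of the 4 leave-outs.

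The remaining complex IV and ATP synthase genes are among those with nuclear copies or beside them. The fall of mt-Co3 rests on 1 library. The gene had 23.2 and 12.9 CPM in mLJZD tumours, against 18.7 and 58.8 CPM in saline tumours. Its log2 fold change was -1.06 (adjusted p = 0.025 by edgeR), and without the second saline tumour it was -0.0011 and not called. For mt-Co2 the log2 fold change was -0.18 (adjusted p = 0.20 by edgeR), for mt-Atp6 -0.17 (0.45) and for mt-Atp8 0.17 (0.80).

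The small-subunit rRNA mt-Rnr1 had 139 and 113 CPM in mLJZD tumours, against 108 CPM in each saline tumour. Its log2 fold change was 0.26 (SE 0.08, adjusted p = 0.013 by edgeR). The large-subunit rRNA mt-Rnr2 had 103 and 92.2 CPM in mLJZD tumours, against 89.6 and 78.5 CPM in saline tumours. Its log2 fold change was 0.25 (SE 0.06, adjusted p = 0.0058 by edgeR). In neither gene did the groups overlap, and the first mLJZD tumour was the highest library in both. Without that library mt-Rnr1 had a log2 fold change of 0.09 and mt-Rnr2 one of 0.15, and neither was called. For mt-Rnr2 the call was also lost without the second mLJZD tumour (0.35) and without the second saline tumour (0.16). DESeq2 did not call mt-Rnr1.

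The calls in tumours rest on an estimate of the spread from the 4 tumour libraries alone. With all 8 libraries sharing 1 estimate, edgeR called 0 members lower, with 4 at an unadjusted p under 0.05, and 1 higher. DESeq2 called 4 lower (mt-Nd2, mt-Nd4, mt-Nd5 and mt-Cytb) and 1 higher (mt-Rnr2). Without the first mLJZD tumour 6 were lower and 0 higher, and without the second 3 were lower and 1 higher. Without the second saline tumour 8 were lower and 1 higher.

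Markers of several cell types moved in the same comparison. The summed level of 16 skeletal muscle markers was 607 and 606 CPM in mLJZD tumours, against 3112 and 3146 CPM in saline tumours. Of 15 tested muscle markers 13 fell and 1 rose, with log2 fold changes of -3.02 for Ckm, a creatine kinase, and -3.42 for Myh4, a fast myosin. The 8 B and plasma cell markers summed to 379 and 344 CPM in mLJZD tumours, against 47.8 and 49.1 CPM in saline tumours. Of 7 tested 4 rose and 0 fell. Igkc alone had 295 and 265 CPM in mLJZD tumours, against 20.4 and 17.8 CPM in saline tumours. Ighm had 20.6 and 20.1 CPM, against 20.1 and 22.4 CPM. Of 9 tested neutrophil markers 7 rose, with a summed level of 42.1 and 39.05 CPM in mLJZD tumours, against 20.97 and 21.1 CPM in saline tumours. All 5 tested erythroid markers rose, with a sum of 47.2 and 43.7 CPM in mLJZD tumours, against 22.2 and 18.2 CPM in saline tumours. Of 4 tested epithelial and colon markers 3 fell, and Krt18, a keratin, had 1.86 and 2.23 CPM in mLJZD tumours, against 16.6 and 15.8 CPM in saline tumours. Summed T and NK cell markers were at 131.1 and 130.7 CPM in mLJZD tumours, against 170 and 178 CPM in saline tumours. Of 10 tested 2 fell and 0 rose, and Il2rb alone had 57.0 and 60.9 CPM, against 89.9 and 94.1 CPM. Those of macrophages were at 1334 and 1280 CPM, against 1506 and 1518 CPM. Of 9 tested macrophage markers 3 fell and 2 rose, and Mrc1 alone had 186 and 183 CPM, against 296 and 300 CPM. Of all genes tested 15.4% were higher and 16.0% lower. The part of muscle RNA, or of other cells, in the lower mitochondrial mRNA share of mLJZD tumours was not tested.

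The second comparison is that of cultures with mLJZD serum against cultures with control serum. There 7 of 12 tested mRNA genes and mt-Rnr1 were lower and mt-Nd5 higher in mLJZD cultures by edgeR's quasi-likelihood test with Benjamini-Hochberg adjustment, 8 members lower and 1 higher. Of the 13299 genes tested 26.6% were lower and 28.8% higher, 55.4% in all. The median log2 fold change of the mRNA genes was -0.51, against -0.01 for all genes tested. Fold changes in these cultures ran with gene length: nuclear protein-coding genes under 1000 bases had a median log2 fold change of -0.77 in mLJZD cultures, and those of at least 8000 bases 1.0. Nuclear protein-coding genes that were short and also low in GC (under 2000 bases and 42% GC) had a median of only -0.19. Of 136 such genes tested 45 were lower and 13 higher. With a smooth trend in transcript length and GC content, fitted on nuclear genes, removed, edgeR called 0 members lower, with 1 lower at an unadjusted p under 0.05 (mt-Atp6), and 3 higher (mt-Nd5, mt-Rnr2 and mt-Tl1). Beside them stood 18.3% of all genes lower and 18.2% higher in that fit, 36.5% in all. On CPM, 6 of 13 mRNA genes were lower in both mLJZD cultures than in both controls and 0 higher, beside 35.4% of all genes tested lower and 42.0% higher in this way, 77.4% in all. DESeq2, without the trend removed, called 3 members lower (mt-Rnr1, mt-Co2 and mt-Co3) and 0 higher. Of these, mt-Co2 and mt-Co3 have near-complete nuclear copies.

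The 2 mLJZD cultures were also far apart in these genes. Among the 10 mRNA genes with a mean of at least 100 counts, the log2 ratio of the first to the second mLJZD culture ran from -1.5 to -0.38 with a median of -0.85. Over all genes its median was 0.0014, with 5% of genes below -0.32. The same median over the 10 genes was 0.20 between mLJZD tumours, 0.08 between saline tumours and -0.10 between control cultures. Short nuclear genes of low GC content (under 2000 bases and 42% GC, 96 genes) had a median of -0.04 between the 2 mLJZD cultures. The labels give no difference between these 2 libraries.

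The same gap was seen gene by gene. For mt-Cytb the mLJZD cultures had 714 and 1361 CPM, against 1370 and 1462 CPM in control cultures. The second mLJZD culture was just under the controls. The log2 fold change was -0.51 (SE 0.19, adjusted p = 0.035 by edgeR), and without the first mLJZD culture it was -0.11 and not called. For mt-Nd2 the mLJZD cultures had 440 and 1069 CPM, against 1048 and 1013 CPM in control cultures. They lay on either side of the controls, with a log2 fold change of -0.51 (adjusted p = 0.10 by edgeR). For mt-Co1 the values were 2100 and 3669 CPM in mLJZD cultures, against 3284 and 3572 CPM in control cultures, again on either side, with a log2 fold change of -0.31 (adjusted p = 0.14 by edgeR).

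Among the other complex I genes, mt-Nd1 (-0.54), mt-Nd4 (-0.80) and mt-Nd6 (-0.46) were lower in mLJZD cultures by edgeR. None of these was called by DESeq2, or by edgeR with the length and GC trend removed. For mt-Nd3 (0.26) and mt-Nd4l (0.72) edgeR gave no call. In complex IV, mt-Co2 (-0.51) and mt-Co3 (-0.83) were lower. For mt-Atp6 the mLJZD cultures had 5.38 and 13.04 CPM, against 12.5 and 47.4 CPM in control cultures. The groups overlapped and the second control was the highest library of the series. The log2 fold change of mt-Atp6 was -1.71 (adjusted p = 0.0046 by edgeR), and without the second control it was -0.48 and not called. The counts of mt-Atp8, 6 to 8 a library in cultures, were too low to be tested. In the rRNA genes mt-Rnr1 was lower in mLJZD cultures (-0.34, adjusted p = 0.0056 by edgeR), and mt-Rnr2 had a log2 fold change of 0.05 with no call.

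A different pattern was seen in mt-Nd5. It had 704 and 1306 CPM in mLJZD cultures, against 627 and 746 CPM in control cultures, where the lower mLJZD library lay between the controls. Its log2 fold change was 0.49 (SE 0.19, adjusted p = 0.037 by edgeR) and 0.60, also called, with the length and GC trend removed. As a share of the mitochondrial mRNA counts of its own library, mt-Nd5 held 12.4% in each mLJZD culture, against 6.35% and 7.31% in control cultures. The share did not overlap between the groups and was alike in the 2 mLJZD cultures, whose total mRNA shares were far apart. In mLJZD tumours mt-Nd5 held 9.02% and 9.67%, against 9.72% and 9.80% in saline tumours. Without the second mLJZD culture the log2 fold change in CPM was -0.0089 and not called, and without the first it was 0.88 and called.

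**Figure D3:**
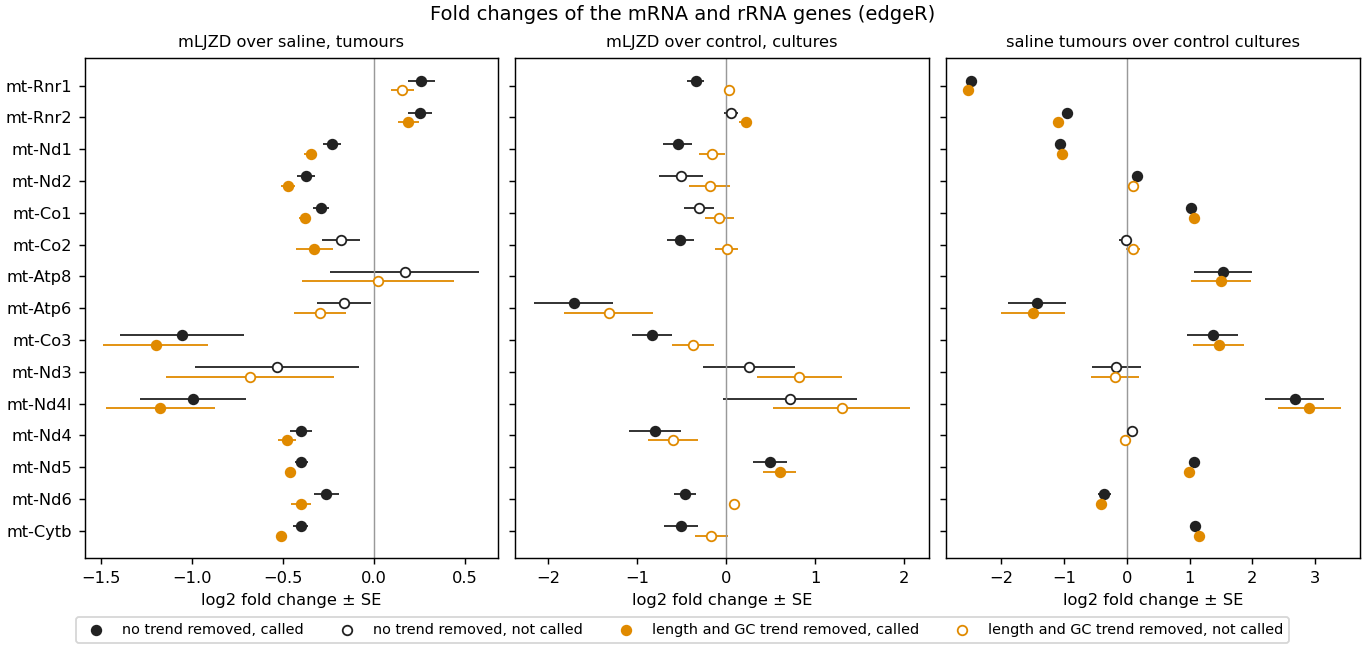
Log2 fold change with SE (edgeR) of the 2 rRNA and 13 mRNA genes for mLJZD over saline tumours (left), mLJZD over control cultures (middle; mt-Atp8 not tested) and saline tumours over control cultures (right), without and with the trend in length and GC content removed. Filled points passed an adjusted p of 0.05. In tumours the mRNA calls stay lower with the trend removed, while in cultures no lower call is left and mt-Nd5 stays higher at 0.60.

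The make-up of the mRNA counts was described by the percent each gene held of its own library's mitochondrial mRNA counts, which does not depend on the total. In tumours mt-Co1 held 48.3% and 48.0% of the mitochondrial mRNA counts with mLJZD, against 47.4% and 46.4% with saline. Then came mt-Cytb with 19.3% and 19.5% with mLJZD, against 20.3% and 20.5% with saline. The gene mt-Nd1 held 8.11% and 8.00% with mLJZD, against 7.44% and 7.60% with saline. In these 3 genes the groups did not overlap, with mt-Co1 and mt-Nd1 higher and mt-Cytb lower in the mLJZD tumours.

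In cultures mt-Co1 held 37.1% and 35.0% with mLJZD serum, against 33.3% and 35.0% with control serum. Here mt-Nd1 came next, with 21.4% and 19.9% with mLJZD serum, against 24.1% and 22.05% with control serum. The share of mt-Cytb was 12.6% and 12.97% with mLJZD serum, against 13.9% and 14.3% with control serum. For mt-Nd4 it was 4.01% and 6.11% with mLJZD serum, against 7.08% and 7.39% with control serum. In these cultures mt-Nd1, mt-Cytb and mt-Nd4 held less in both mLJZD libraries than in both controls.

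**Figure D4:**
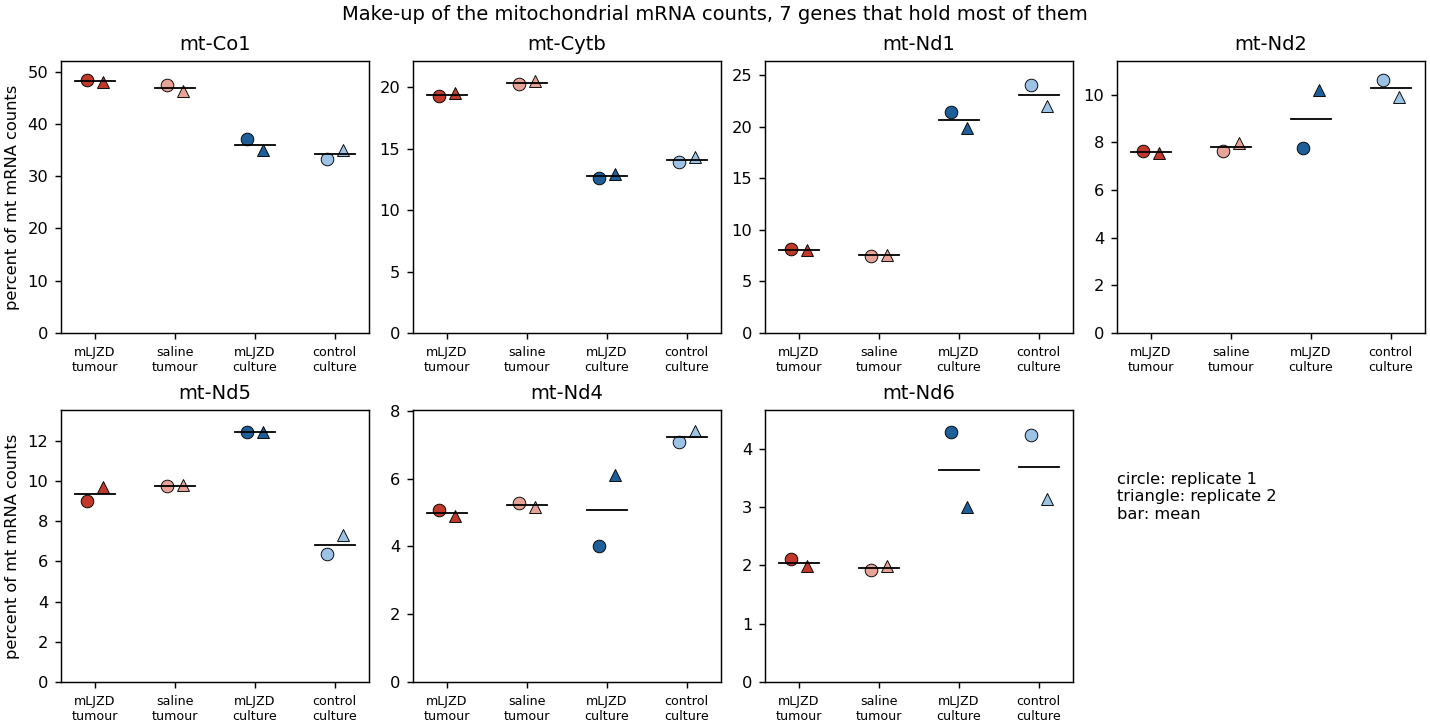
Percent of the mitochondrial mRNA counts of each library held by 7 genes, with bars at group means. In the tumours mt-Nd1 is at 7.44% to 8.11% and in the cultures at 19.9% to 24.1%, and mt-Nd5 is at 12.4% in both mLJZD cultures, against 6.35% and 7.31% in control cultures.

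The control groups, saline tumours and control cultures, were compared to give the background of growth as a tumour against growth in culture. Of the 24 members tested, 7 were higher and 11 lower in saline tumours, beside 44.9% of 15332 genes tested higher and 35.7% lower, 80.6% in all. Without the second saline tumour 4 were higher and 8 lower. On CPM, 9 of 13 mRNA genes were higher in both saline tumours than in both control cultures and 1 lower, beside 54.6% of all genes higher and 34.9% lower in this way, 89.5% in all. After the length and GC trend was taken out, 6 of the 24 were higher and 11 lower, beside 39.9% of all genes higher and 38.4% lower, 78.4% in all. Among the genes called lower, mt-Th, mt-Ts2, mt-Tl2 and mt-Tw passed the filter on low counts only through the control cultures. Among those called higher, mt-Nd4l and mt-Atp8 passed it only through the saline tumours. In each case that is the group where the gene is high, so those calls are no support in any fit. The difference ran in both directions within the mRNA genes. In saline tumours mt-Cytb had 3457 and 3279 CPM, against 1370 and 1462 CPM in control cultures, a log2 fold change of 1.09 (SE 0.05, adjusted p = 1.8e-08 by edgeR). For mt-Nd1 the saline tumours had 1268 and 1216 CPM, against 2373 and 2250 CPM in control cultures, a log2 fold change of -1.06 (SE 0.06, adjusted p = 2.4e-08 by edgeR). Neither gene overlapped between the groups. Muscle markers moved in the same comparison: all 15 tested skeletal muscle markers were higher in saline tumours, with a summed level of 3112 and 3146 CPM, against 18.9 and 14.1 CPM in control cultures. Summed macrophage markers were at 1506 and 1518 CPM in saline tumours, against 11.2 and 8.83 CPM in control cultures. The part of muscle RNA, or of other cells, in these differences was not tested.

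Also higher in saline tumours were mt-Co1 (1.01), mt-Nd5 (1.07), mt-Nd2 (0.16), mt-Co3 (1.36), mt-Nd4l (2.67) and mt-Atp8 (1.54). Also lower were mt-Nd6 (-0.36) and mt-Atp6 (-1.43). No call was made for mt-Co2 (-0.02), mt-Nd3 (-0.17) and mt-Nd4 (0.09). Several of these values rest on 1 library. Without the second saline tumour mt-Co3 was at 0.31 and not called, and without the second control culture mt-Atp6 was at -0.21 and not called. DESeq2 did not call mt-Co3, mt-Atp6, mt-Atp8 or mt-Nd6, and mt-Nd2 was not called after removal of the length and GC trend. Leaving out either saline tumour also ended the calls of mt-Nd2 and mt-Atp8, and leaving out either control culture that of mt-Co3; that of mt-Atp8 ended without the first control culture. With the counts of the nuclear copies added, mt-Co2 (-1.04) and mt-Nd3 (-2.80) became lower in saline tumours, mt-Co3 (-0.19) and mt-Atp6 (-0.37) were not called, and mt-Nd4l was at 0.91 and still called.

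Both rRNA genes were lower in saline tumours. The level of mt-Rnr1 was 108 CPM in each saline tumour, against 568 and 509 CPM in control cultures, a log2 fold change of -2.48 (SE 0.07, adjusted p = 2.1e-10 by edgeR). For mt-Rnr2 it was 89.6 and 78.5 CPM in saline tumours, against 144 and 146 CPM in control cultures, a log2 fold change of -0.95 (SE 0.06, adjusted p = 1.7e-07 by edgeR). The groups did not overlap in either gene. The order of the 2 rRNA genes by level per kilobase was the same in all 8 libraries, with mt-Rnr1 above mt-Rnr2.

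The tRNA genes were counted at low levels. Summed over the 22 genes they came to 16.7 and 13.4 CPM in mLJZD tumours, against 20.3 and 15.1 CPM in saline tumours, where the groups overlapped. In cultures the sum was 17.5 and 26.6 CPM with mLJZD serum, against 30.8 and 29.4 CPM with control serum, with both mLJZD libraries below both controls. The one with the most counts, mt-Tp, a proline tRNA, had 12.7 and 10.6 CPM in mLJZD tumours, against 15.4 and 10.6 CPM in saline tumours, and 4.45 and 12.7 CPM in mLJZD cultures, against 14.3 and 13.6 CPM in control cultures. In mLJZD tumours mt-Tl1, a leucine tRNA that lies between mt-Rnr2 and mt-Nd1, had 4 and 3 counts, against 16 and 11 counts in saline tumours. Its log2 fold change was -1.71 (SE 0.62, adjusted p = 0.046 by edgeR), and it was the only tRNA gene called of 5 tested in tumours. The gene passed the filter on low counts only through the saline tumours, where it is high. Its call, which is among the members counted as lower in mLJZD tumours, is therefore no support. The call was not made by DESeq2, without the filter on low counts, with all 8 libraries in 1 fit, or when any 1 of the 4 libraries was left out. In cultures edgeR called 0 of 9 tested tRNA genes, with 1 at an unadjusted p under 0.05 (mt-Tp, lower), and DESeq2 called 0. After removal of the length and GC trend mt-Tl1 was called higher, and with all 8 libraries in 1 fit 1 tRNA gene was called lower. That trend was fitted on nuclear protein-coding genes, and whether it holds for genes as short as tRNA genes was not tested.

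A cluster of 3 neighbouring tRNA genes between mt-Nd4 and mt-Nd5 was counted in cultures and close to 0 in tumours. The gene mt-Th carries histidine, mt-Ts2 serine and mt-Tl2 leucine. Their sequences are shown because these short genes carry the difference, with the anticodon in capitals where the expected triplet was found in the middle of a loop closed by a base-paired stem; in mt-Ts2 no such place was found and no base is marked (GENCODE M21 transcripts).
mt-Th: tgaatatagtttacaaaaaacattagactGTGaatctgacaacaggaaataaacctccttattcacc
mt-Ts2: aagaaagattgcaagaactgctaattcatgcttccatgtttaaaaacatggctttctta
mt-Tl2: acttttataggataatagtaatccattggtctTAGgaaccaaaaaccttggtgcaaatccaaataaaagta

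The counts of mt-Tl2 were 5 and 1 in mLJZD tumours and 1 and 0 in saline tumours, but 114 and 119 in mLJZD cultures and 136 and 116 in control cultures. For mt-Th they were 1 and 0 in mLJZD tumours, 0 and 1 in saline tumours, 24 and 22 in mLJZD cultures and 27 and 51 in control cultures. For mt-Ts2 they were 3 and 0 in mLJZD tumours, 0 in both saline tumours, 22 and 34 in mLJZD cultures and 30 and 37 in control cultures. Every culture was above every tumour in all 3 genes. Against control cultures, saline tumours were at least 19.3-fold lower in mt-Ts2, from a floor of 3 counts over the group. The control cultures over the saline tumours gave a ratio of 218 (counting interval 38.8 to 8648) in mt-Tl2 and 67.5 (11.8 to 2700) in mt-Th, intervals that cover counting error only. These genes entered the fit through the cultures, where they are high, so no test of them is given. They are among the members counted as lower in saline tumours, and those calls are no support. Of the flanking mRNA genes, mt-Nd4 was not called and mt-Nd5 was higher in saline tumours.

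**Figure D5:**
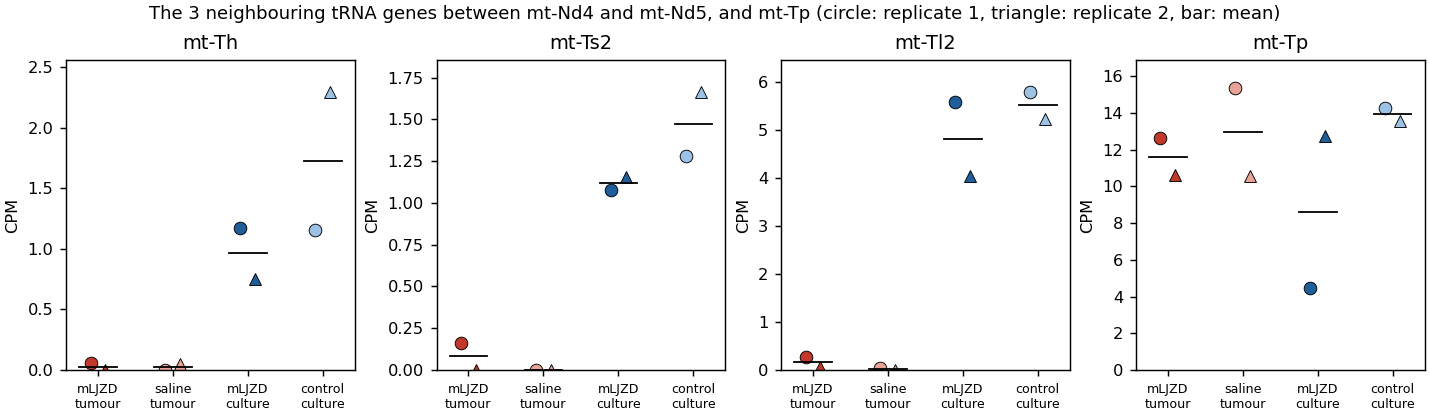
CPM of the 3 neighbouring tRNA genes mt-Th, mt-Ts2 and mt-Tl2 and of mt-Tp, the tRNA gene with the most counts, in each of the 8 libraries, with bars at group means. The 3 neighbours are at 0.75 CPM or more in every culture and at 0.27 CPM or less in every tumour, while mt-Tp is at 10.6 to 15.4 CPM in tumours and 4.45 to 14.3 CPM in cultures.

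Other tRNA genes lower in saline tumours than in control cultures were mt-Tl1 (-1.68), mt-Te (-1.04) and mt-Tw (-1.97) on the log2 scale. Of these, mt-Tw passed the filter on low counts only through the control cultures, where it is high. DESeq2 did not call mt-Te or mt-Tw, and without the second saline tumour none of the 3 was called, with mt-Tw at -1.21. No call was made for mt-Tn, mt-Tc and mt-Tp. The remaining named gene, mt-Ty, had 1 to 9 counts a library and was not tested. Of the 37 genes 9, mt-Nd6 and 8 tRNA genes, are copied from the other strand than the rest. Counting by strand is not stated, and counts from the 2 strands of a site cannot be told apart.

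Whether the mLJZD effect differed between tumours and cultures was tested by an interaction term fitted to all 8 libraries, tumour effect minus culture effect. Of 24 members tested 2 were higher and 2 lower, beside 23.8% of 16090 genes higher and 20.5% lower, 44.4% in all. The difference was 0.69 for mt-Rnr1 (SE 0.13, adjusted p = 0.00043 by edgeR), which rose in mLJZD tumours and fell in mLJZD cultures. It was -0.81 for mt-Nd5 (SE 0.24, adjusted p = 0.010 by edgeR), which fell in mLJZD tumours and rose in mLJZD cultures. For mt-Atp6 it was 1.62 (SE 0.62, adjusted p = 0.043 by edgeR) and for mt-Tl1 -1.93 (SE 0.70, adjusted p = 0.033 by edgeR). With the length and GC trend removed, 4 were lower and 0 higher, beside 12.1% of all genes lower and 21.7% higher, 33.8% in all: mt-Rnr1 (0.27) and mt-Atp6 were not called, and mt-Nd6 (-0.36) and mt-Nd4l (-2.37) were lower. Without the second control culture mt-Atp6 was at 0.38 and not called, and without the second mLJZD culture mt-Nd5 was at -0.30. When either mLJZD tumour was left out, mt-Nd5, mt-Tl1 and mt-Atp6 were not called. The number of calls also turned on single libraries. It was 0 lower and 1 higher without the first mLJZD tumour, 0 lower and 2 higher without the second, 1 lower and 3 higher without the first saline tumour, and 2 lower and 1 higher without the second. Without the first mLJZD culture it was 5 lower and 1 higher, and without the second 1 lower and 11 higher.

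The nuclear partners of these genes were read from the same fits. Of 77 tested nuclear subunits of complexes I to V, 17 rose and 3 fell in mLJZD tumours (edgeR), with a median log2 fold change of 0.06. Of all genes tested 15.4% were higher and 16.0% lower. In complex I 7 rose and 1 fell of 36, led by Ndufb6 (0.64), an accessory subunit. In the ATP synthase 5 rose of 17, led by its inhibitor Atpif1 (0.43). With the length and GC trend removed 13 of the 77 rose and 10 fell, beside 16.7% of all genes higher and 16.6% lower. In mLJZD cultures 72 of the 77 fell and 2 rose, with a median of -0.83, beside 26.6% of all genes tested lower and 28.8% higher. Of 447 tested nuclear protein-coding genes under 1000 bases, 340 were lower there. With the trend removed 39 of the 77 fell and 3 rose, with a median of -0.25, beside 18.3% of all genes lower and 18.2% higher. Uqcrq, a small subunit of complex III, was at -1.41 in cultures and -1.04 with the trend removed. In saline tumours against control cultures 73 of the 77 were lower by edgeR and 0 higher. At an unadjusted p under 0.05, and by DESeq2, 0 were higher as well. There edgeR called 7 mitochondrial mRNA genes higher, but the calls of mt-Nd4l and mt-Atp8 are no support. Both passed the filter on low counts only through the saline tumours. Without the second saline tumour mt-Co3 was at 0.31, and mt-Nd2 was not called with the trend removed. With the trend removed 70 of the 77 were lower and 2 higher. Beside these stood 35.7% of all genes tested lower and 44.9% higher without removal of the trend, and 38.4% and 39.9% with it.

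Of 18 genes for transcription and replication of mitochondrial DNA, 6 fell and 1 rose in mLJZD tumours, beside 16.0% of all genes tested lower and 15.4% higher. Polrmt, the mitochondrial RNA polymerase, had 27.6 and 28.3 CPM in mLJZD tumours, against 42.5 and 42.03 CPM in saline tumours, with a log2 fold change of -0.57 (SE 0.07, adjusted p = 1.3e-05 by edgeR). The groups did not overlap. Among those that fell were also Tfb2m, a transcription initiation factor (-0.41), and Tefm, an elongation factor (-0.44), while Slc25a33, a mitochondrial pyrimidine nucleotide carrier, rose (0.78). In cultures 3 of the 18 rose and 5 fell, beside 28.8% of all genes tested higher and 26.6% lower; Slc25a33 fell (-0.67).

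Of 29 genes for processing and stability of mitochondrial RNA, 6 rose and 3 fell in mLJZD tumours, where 15.4% of all genes tested were higher and 16.0% lower. Fastkd2, an RNA-binding protein of mitochondrial RNA granules, fell (-0.60), and Slirp, the partner of Lrpprc in keeping mitochondrial mRNAs stable, rose (0.80, adjusted p = 0.038 by edgeR). Slirp fell in mLJZD cultures (-1.0, adjusted p = 0.030 by edgeR) and differed between tumours and cultures by 1.87 (adjusted p = 0.0024 by edgeR), on 1.13 to 3.604 CPM a library. In mLJZD cultures 9 of the 29 rose and 11 fell, beside 28.8% of all genes tested higher and 26.6% lower. Of 13 tested mitochondrial translation factors edgeR called 0 in mLJZD tumours, with 0 at an unadjusted p under 0.05 and 0 called by DESeq2. In mLJZD cultures 4 of the 13 rose and 5 fell, beside the same culture shares of 28.8% and 26.6%. Of 7 tested mitophagy receptors 2 rose in mLJZD tumours, Bnip3 and Bnip3l, the second by 0.20 on the log2 scale, where 15.4% of all genes were higher.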

How the data were processed

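The values are raw gene counts of the 8 libraries, in 1 table as the authors deposited it. The submitters' processing notes name GRCm39 and the tools featureCounts 2.0.3, SAMtools 1.14, HISAT2 2.2.1, FastQC 0.12.1 and Trim Galore. Which annotation was counted, whether by strand, and what was done with multi-mapped reads is not given in the sources used here. Identifiers were matched to GENCODE M21, made on an earlier build, for symbols, lengths and sequences: 52029 of 56953 matched, and no coordinates were used.

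The deposited counts were tested with edgeR 4.0.16 (R 4.3.3): quasi-likelihood F test, two-sided, TMM, filterByExpr, p-values adjusted by Benjamini-Hochberg across the fitted genes, with a threshold of 0.05 for a call. Tumours, cultures and control groups were fitted with 4 libraries each and the interaction with 8. SE is the log2 fold change over the square root of F. CPM uses the library total. DESeq2 1.42.0, other scalings, no filter, a replicate block, all 8 libraries in 1 fit, leaving out each library, and removal of a trend in length and GC (natural splines with 5 degrees of freedom each, on nuclear protein-coding genes of at least 1 CPM) were alternatives; adding the nuclear copies' counts was chosen after seeing the data. Nuclear copies were found with blastn 2.17.0 and by exact stretches. The edgeR test was run first on simulated data with 200 changed genes. The trend step was run on simulated data with a trend in length only and no changed genes. Whether it keeps real changes, or holds for genes as short as tRNA genes, was not tested.

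The members and lists were chosen with earlier results of these data known. The mRNA and rRNA genes are named in every comparison, tRNA genes from 10 counts over the libraries, and of other lists up to 4 called members with the largest changes.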

Additional observations from a re-analysis of the deposited data

Results flagged for a closer look

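The effect of mLJZD differed between tumours and cultures in 4 of the mitochondrially encoded genes by edgeR's interaction test, tumour effect minus culture effect on the log2 scale. The difference was 0.69 for mt-Rnr1 (adjusted p = 0.00043), -0.81 for mt-Nd5 (adjusted p = 0.010), 1.62 for mt-Atp6 (adjusted p = 0.043) and -1.93 for mt-Tl1 (adjusted p = 0.033). DESeq2 called 1 of the 4, mt-Rnr1. With the length and GC trend removed, mt-Nd5 and mt-Tl1 were called by edgeR and mt-Rnr1 and mt-Atp6 were not. The mt-Tl1 value rests on 4 and 3 counts in mLJZD tumours and 16 and 11 in saline tumours. That gene is 75 bases long, and whether a trend fitted on nuclear protein-coding genes holds at that length was not tested.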

How the results depend on the processing

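The labels give no pairing of same-numbered libraries, and across genes their deviations correlated at -0.10 in tumours, 0.02 in cultures and -0.0026 between the controls, so the replicate block is an alternative: with it 9 members were lower and 2 higher in mLJZD tumours, and mt-Tl1 was not called there, and in cultures 11 were lower and 1 higher. In mLJZD tumours (10 lower, 2 higher) DESeq2 called 4 lower and 1 higher, all 8 libraries in 1 fit gave 0 lower and 1 higher, no filter gave 0 higher and the trend removed gave 1 higher. In mLJZD cultures (8 lower, 1 higher) DESeq2 called 3 lower and 0 higher, upper-quartile factors gave 0 higher, and with the trend removed 0 were lower and 3 higher. Between saline tumours and control cultures (11 lower, 7 higher) DESeq2 called 7 lower. For the interaction (2 lower, 2 higher) library totals gave 1 higher, no filter 5 higher, DESeq2 0 lower and 1 higher, and the trend removed 4 lower and 0 higher. Why these counts moved was not tested. Leaving out 1 library, where a lone sample is assumed to vary like the others, gave 3 to 8 lower and 0 to 2 higher in tumours (3 without the second mLJZD tumour), 6 to 12 lower and 0 to 1 higher in cultures, 8 to 11 lower and 4 to 6 higher between the controls (4 without the second saline tumour), and 0 to 5 lower and 1 to 11 higher for the interaction (11 without the second mLJZD culture). Without the genes with a listed nuclear copy, the share differences became 1.49 points for mt-Nd1 and -1.17 for mt-Cytb in tumours, -4.45 and -2.51 in cultures, and -23.9 and 18.6 between saline tumours and control cultures. Signs turned with copies added for mt-Nd3 in tumours (0.10) and mt-Co3 between the controls (-0.19). In cultures they turned with upper-quartile factors (-0.058) and with all 8 libraries (-0.024) for mt-Rnr2, and with the trend removed for mt-Rnr1 (0.037), mt-Co2 (0.0077) and mt-Nd6 (0.095). Between the controls mt-Co2 turned with RLE factors (0.0026), library totals (0.14), DESeq2 (0.0026) and the trend removed (0.10), and mt-Nd4 with the trend removed (-0.029). The interaction of mt-Nd6 turned with the trend removed (-0.36). Leaving out 1 library also turned in tumours mt-Atp8 (-0.015 to 0.38), mt-Atp6 (-0.34 to 0.031), and in cultures mt-Co1 (-0.75 to 0.045), mt-Rnr2 (-0.037 to 0.15), mt-Nd3 (-0.50 to 0.71), mt-Nd5 (-0.0089 to 0.88), mt-Nd4l (-0.88 to 2.03), and between the controls mt-Co2 (-0.087 to 0.051), mt-Nd3 (-0.44 to 0.13). Genes at a few counts, tRNA genes above all, allow no statement on absence.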
